A study of Arabidopsis thaliana with 48 samples.

Results

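The 44 nuclear genes described here encode the light-harvesting antennae, the photosystem subunits and the small subunit of Rubisco, and they were chosen by locus identifier from 33977 genes in each of the leaf and root tables. Of these, 9 encode the major antenna LHCII, 4 the minor antenna of photosystem II, 5 the antenna of photosystem I, 12 subunits of photosystem I, 6 the oxygen-evolving side of photosystem II, 4 other photosystem II subunits and 4 the Rubisco small subunit. The choice used no measured value as a rule, but earlier results of these data were known when it was made. RNA was sequenced from leaves and roots of Arabidopsis seedlings grown for 11 days under constant light on solid medium, on the International Space Station (flight, FT) or in an environment simulation chamber on the ground (ground control, GC). The genotypes were Col-0, the wild type, and elp2-5 and met1-7, mutants in the Col-0 background of the Elongator complex subunit ELP2 and of the DNA methyltransferase MET1. The design had 12 groups with 4 libraries each. By the methods of the study, material of separate plates was combined within a replicate, 1 met1-7 FT replicate came from a single plate, and the growth medium of all groups contained sucrose.

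In chloroplasts, photosystem II takes electrons from water and photosystem I passes them on to ferredoxin, and chlorophyll-binding LHC proteins feed both with excitation energy. Rubisco fixes CO2, and its small subunits are made in the cytosol and imported to join the large subunit, which the chloroplast genome encodes. The nuclear genes of these complexes are known for joint induction by light and for low expression in roots, whose plastids are mostly not photosynthetic. The levels below are FPKM, fragments scaled by gene length and by the library's total, so that levels of different genes can be compared.

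The organ labels fitted the marker genes. Over the 9 leaf and shoot markers, summed FPKM ran from 140 to 233 in leaf libraries and from 18.6 to 27.0 in roots, where AS1, a leaf polarity regulator, gave 18.3 to 26.5 FPKM. The stomatal regulator MUTE was at 0 in all 24 root libraries, and YAB1, YAB3 and SPCH did not exceed 0.27 FPKM there. The 10 root markers summed to 399 to 648 FPKM in roots and to 22.4 to 34.8 FPKM in leaves. Most of the leaf sum came from SHR, at 6.74 to 11.5 FPKM, and SCR, at 10.8 to 17.7 FPKM. SCR overlapped with its root values of 11.2 to 23.0 FPKM. ELP2 lay between 3.24 and 3.99 FPKM in elp2-5 leaves and between 7.38 and 9.13 FPKM in Col-0 leaves, without overlap. MET1 lay between 10.8 and 15.2 FPKM in met1-7 leaves and between 12.7 and 14.7 FPKM in Col-0 leaves, so its transcript level does not check these labels. FPKM hold no read counts, and the relative depth of the libraries, estimated from the steps between low values, lay between 0.82 and 1.2 for the leaf libraries and between 0.86 and 1.18 for the root libraries. The elp2-5 GC root replicate 2 stood apart with 938877 summed FPKM, where the median of the 24 root libraries was 850052.

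In leaves, the 44 genes together took a large part of the transcript pool. Their share of the summed FPKM was 17.6%, 18.3%, 18.4% and 18.7% in the 4 Col-0 GC libraries and 20.3%, 17.0%, 17.0% and 18.4% in Col-0 FT. In elp2-5 it was 13.4%, 13.0%, 15.5% and 15.3% in GC and 16.3%, 13.5%, 12.5% and 14.5% in FT. All 8 elp2-5 libraries lay below all 8 Col-0 libraries, whereas the FT and GC libraries of each genotype overlapped. In met1-7 the share was 16.5%, 17.6%, 17.3% and 17.3% in GC and 18.6%, 17.5%, 15.8% and 16.7% in FT, and it overlapped with Col-0 in FT but not in GC, where the highest met1-7 library lay just under the lowest Col-0 library. Of the 100 genes of highest FPKM in a leaf library, between 37 and 42 were among the 44.

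**Figure D1:**
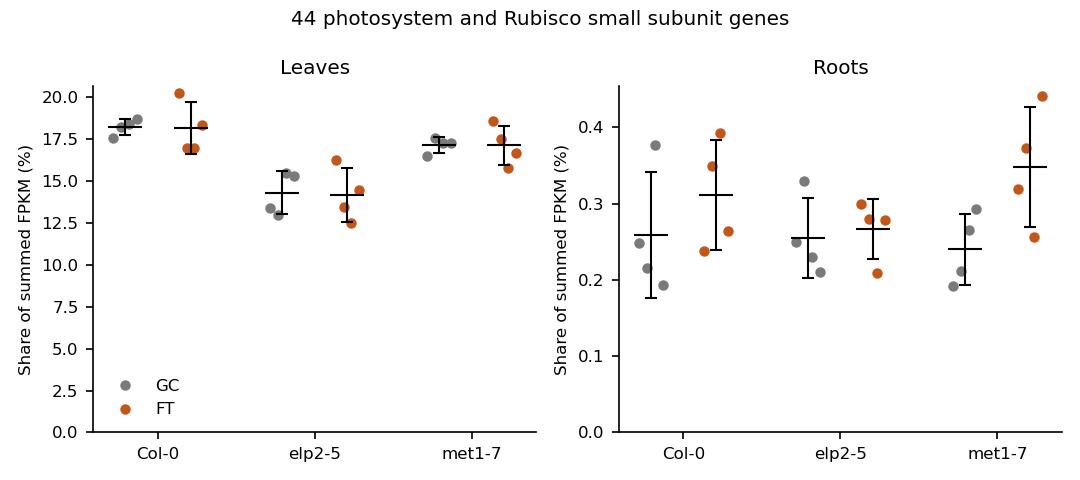
Share of a library's summed FPKM (percent) taken by the 44 photosystem and Rubisco small subunit genes, in leaves (left) and roots (right), by genotype; points are libraries, GC in grey and FT in orange, and the horizontal mark and bar are the mean ± SD (n = 4). The elp2-5 leaf libraries lie between 12.5% and 16.3%, under the lowest Col-0 leaf library at 17.0%, and root shares stay between 0.19% and 0.44%.

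The levels in Col-0 GC leaves spanned a wide range within and between the classes. RBCS1A, a small subunit gene on chromosome 1, was the gene of highest FPKM in every leaf library, with 19465 ± 907 FPKM (SD, n = 4) in Col-0 GC, and RBCS1B was the lowest of its family with 7619 ± 937 FPKM. Within LHCII, the trimeric antenna, LHCB1.3 had 11350 ± 491 FPKM and LHCB2.3 had 767 ± 102 FPKM. In the minor antenna, monomeric proteins between LHCII and the photosystem II core, LHCB5 was highest at 5133 ± 383 FPKM and LHCB4.2 lowest at 1749 ± 187 FPKM. In the photosystem I antenna, LHCA4 reached 4388 ± 619 FPKM, while LHCA5, a minor antenna protein that takes part in joining photosystem I to the NDH complex, had 206 ± 16.1 FPKM and was the least expressed of the 44 genes.

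Among photosystem I subunits, PSAK, at the antenna-facing side of the complex, had 4574 ± 163 FPKM and PSAH1, a docking site for mobile LHCII, had 699 ± 45.0 FPKM. On the oxygen-evolving side, PSBR had 6152 ± 401 FPKM and PSBO2, a copy of the manganese-stabilizing protein, had 1402 ± 117 FPKM. Among the other photosystem II subunits the range was narrow, from 1936 ± 125 FPKM for PSBS, which triggers the dissipation of excess light energy as heat, to 3069 ± 83.8 FPKM for PSBX.

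Most of the called differences among these genes lay between elp2-5 and Col-0 leaves, and there they were all decreases. On the ground, 30 of the 44 were lower in elp2-5 at an adjusted p under 0.05 and 0 were higher, where 14.1% of the 19877 genes tested were called lower and 37.6% higher. In FT, 34 were lower and 0 higher, where 14.9% of all genes were called lower and 35.5% higher. The median log2 fold change of the 44 was -0.34 on the ground and -0.37 in FT, beside 0.14 and 0.12 over all genes tested. In this pair of comparisons the GC and FT libraries are separate samples, and 29 genes were called lower in both. Both comparisons use the same estimate of the spread, and most of the 44 genes deviate together between replicates. Their common sign is therefore not that of 44 separate observations. None of the 44 reached the fold change of 2 that DEGs require, which 1.32% (GC) and 1.45% (FT) of all genes passed as lower DEGs, and the groups did not overlap for 27 genes on the ground and 26 in FT, all lower in elp2-5, where 12.2% and 12.3% of all genes had non-overlapping lower values.

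The 3 largest decreases on the ground belonged to Rubisco small subunit genes. RBCS2B (AT5G38420) read 10266, 10261, 8340 and 7502 FPKM in Col-0 GC and 4982, 5802, 4728 and 4378 FPKM in elp2-5 GC. The lowest Col-0 library stood above every elp2-5 library. The log2 fold change was -0.87 ± 0.13 (SE), with an adjusted p of 1.85e-05. RBCS3B changed by -0.81 ± 0.09 (adjusted p = 2.67e-07) and RBCS1B by -0.78 ± 0.11 (adjusted p = 1.06e-05) on the log2 scale. RBCS1A, the copy of highest level, was also lower on the ground, by a log2 of -0.28 ± 0.06, and in FT it gave -0.09 ± 0.06, which was not called. RBCS1A took between 41.9% and 50.4% of the family's FPKM in elp2-5 leaves, above its 37.4% to 41.0% in Col-0 leaves.

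The photosystem I core followed, with 9 of 12 subunit genes lower on the ground and 11 of 12 in FT. PSAG, which helps bind the antenna of photosystem I, read 1940, 2093, 2069 and 2338 FPKM in Col-0 GC and 1178, 1179, 1322 and 1358 FPKM in elp2-5 GC, without overlap, and its log2 fold change was -0.74 ± 0.08 (adjusted p = 1.27e-07). PSAF, at the docking site of plastocyanin, read 3974, 3382, 3441 and 3642 FPKM in Col-0 FT and 2620, 2248, 2090 and 2336 FPKM in elp2-5 FT. Its elp2-5 values were again all below those of Col-0, with a log2 fold change of -0.64 ± 0.07 (adjusted p = 8.30e-07). PSAH2 was the only one of the 12 that was called in neither environment.

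On the oxygen-evolving side all 6 genes were lower in elp2-5 in both environments. PSBQ1 (AT4G21280), a copy of the small extrinsic protein PsbQ, had the lowest adjusted p of the 44 in both. It read 3247, 3086, 2973 and 2844 FPKM in Col-0 GC against 1743, 1757, 1972 and 1807 FPKM in elp2-5 GC, and 2885, 2536, 2608 and 3140 FPKM in Col-0 FT against 1844, 1641, 1497 and 1848 FPKM in elp2-5 FT. No library of elp2-5 reached any library of Col-0. The log2 fold changes were -0.74 ± 0.07 (adjusted p = 4.98e-08) on the ground and -0.71 ± 0.07 (adjusted p = 8.78e-08) in FT. All 4 other photosystem II subunits, PSBS, PSBW, PSBX and PSBY, were lower in both environments as well.

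Antenna genes were called in part. In the minor antenna 3 of 4 were lower in each environment, and in the photosystem I antenna 3 of 5 on the ground and 5 of 5 in FT. Of the 9 LHCII genes, LHCB1.4 was lower in both environments and LHCB1.3 in FT. LHCB1.4 read 1299, 941, 1270 and 1383 FPKM in Col-0 FT and 898, 595, 418 and 610 FPKM in elp2-5 FT, and the groups did not overlap. This was the largest change of a member in FT leaves, with a log2 fold change of -0.99 ± 0.25 (adjusted p = 0.00252). LHCB2.1 read 1238, 1264, 1464 and 1433 FPKM in Col-0 GC and 1281, 854, 1772 and 1644 FPKM in elp2-5 GC. The elp2-5 libraries spanned those of Col-0 on both sides. The 9 genes called in neither environment were PSAH2, LHCB4.2 and 7 of the 9 LHCII genes.

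The number of lower genes depended on the scaling of the libraries. FPKM gave all genes a median shift of 0.14 (GC) and 0.12 (FT) on the log2 scale in elp2-5 leaves, which median-ratio scaling took to 0.01 and 0.00, and the members then had medians of -0.48 and -0.50 with 34 and 38 called lower. The background moved too, with 23.2% (GC) and 24.0% (FT) of all genes called lower under median-ratio scaling, at 4615 lower and 4471 higher in GC against 2798 and 7465 in FPKM as deposited, and with 23.9% and 25.3% under quantile normalization. Quantile normalization forces the top ranks that these genes occupy to equal values in all libraries. It gave the members medians of -0.09 (GC) and -0.15 (FT). It left 16 lower and 3 higher on the ground (LHCB1.3, LHCB1.5 and PSAL, with log2 fold changes of 0.23 to 0.35) and 19 lower and 0 higher in FT. Under it, the sign changed for 3 genes called lower on the ground (LHCB4.1, LHCA2 and PSBR) and for 2 called lower in FT (LHCB1.3 and PSAL).

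**Figure D2:**
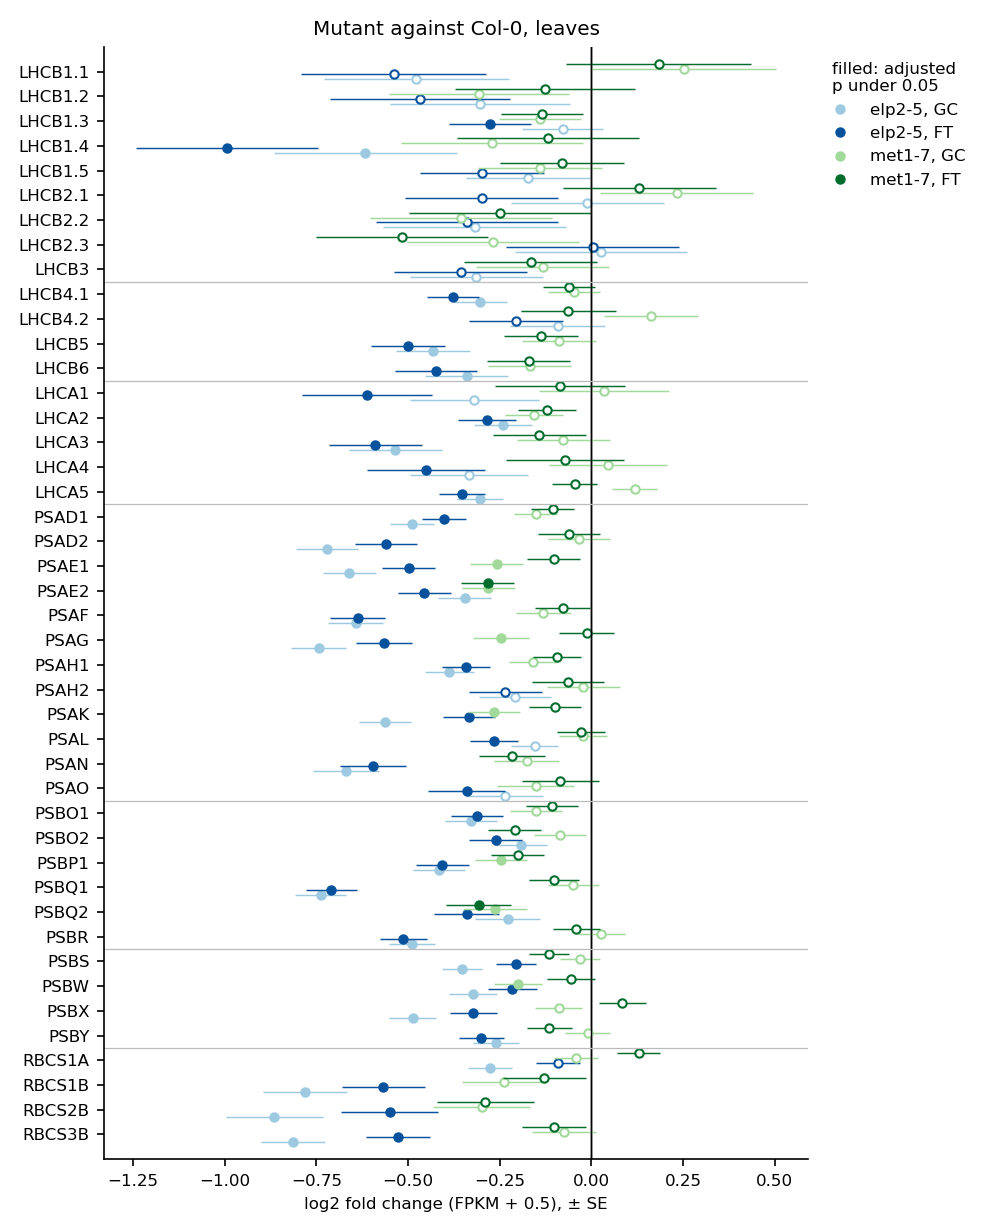
Log2 fold change ± SE of each of the 44 genes in leaves, elp2-5 against Col-0 (blue) and met1-7 against Col-0 (green), in GC (light) and FT (dark); filled points have an adjusted p under 0.05 and grey lines separate the 7 classes. The filled blue points, 30 in GC and 34 in FT, lie left of 0, and the filled green points are 7 in GC and 2 in FT.

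Other genes of photosynthesis were also lower in elp2-5 leaves, where 14.1% (GC) and 14.9% (FT) of all genes were called lower. In the list for the Calvin-Benson cycle, 14 of 15 genes were lower in each environment, among them RCA, Rubisco activase (log2 fold change -0.70 on the ground, adjusted p = 1.02e-06). Of the genes for photosynthetic electron transport and ATP synthase, 11 of 11 were lower on the ground and 10 of 11 in FT, among them FNR1, the ferredoxin-NADP+ reductase of leaves (-0.69, adjusted p = 6.48e-08). In chlorophyll synthesis 12 of 17 were lower in each environment and 1 was higher in FT, with the largest change in PORA, a protochlorophyllide reductase (-1.54, adjusted p = 0.00398). Of 13 other photosystem and LHC-like genes, 9 were lower and 2 higher on the ground, and ELIP1, an LHC-like protein that accumulates under light stress, rose by 2.09 (adjusted p = 1.37e-08). Of the 14 regulators, 4 were lower and 1 higher on the ground, and LHY, a clock component, fell by 0.68 on the log2 scale (adjusted p = 0.00129).

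Markers of organ identity were called in the same comparisons, in which 37.6% (GC) and 35.5% (FT) of all genes were called higher. In elp2-5 leaves 6 of 9 leaf and shoot markers were higher than in Col-0 on the ground, and 5 were higher and 1 lower in FT. Of the 10 root markers only 4 passed the filter in leaves, and the rest were not tested there. Of these 4, 3 were higher on the ground and 2 in FT, led by WOX5, which marks the root stem cell niche (log2 fold change 1.83 on the ground, adjusted p = 4.88e-07). These 4 include SHR and SCR, which were expressed in all leaf libraries and so do not mark root tissue there. WOX5 stayed at or under 2.97 FPKM in every leaf library, with a median of 0.35 FPKM. The filter asks for 1 FPKM in at least 4 libraries, so a low marker can pass it through the group where it is high. The count out of 4 is therefore not a share of all root markers. The part of cell type composition in the lower photosystem values was not tested. In material of whole leaves, fewer photosynthetic cells and less RNA of these genes per cell cannot be told apart.

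The comparison of FT with GC sets plants grown in flight beside plants grown in the ground chamber, within a genotype. All FT plants came from the run on the station and all GC plants from the run in the chamber. Flight therefore cannot be told apart from run or chamber, and the p-values measure only the spread between libraries. In leaves, few of the 44 genes differed, and by small amounts. In Col-0, 4 of the 44 were lower in FT and 0 higher, beside 3.15% of all genes called lower and 8.71% called higher. In met1-7, 2 were lower and 0 higher, beside 3.38% and 9.53%. In elp2-5, 0 were called by limma, where 0.156% of all genes were called lower and 0.644% higher. There 2 members had an unadjusted p under 0.05, beside 2875 of the 19877 genes tested. Median log2 fold changes of the members were 0.05 (Col-0), 0.02 (elp2-5) and 0.06 (met1-7), beside 0.05, 0.03 and 0.07 over all genes. The split over all genes depended on the scaling. Under median-ratio scaling 6.84% of all genes were called lower in Col-0 (1360 lower and 1113 higher, against 627 and 1732 in FPKM as deposited) and 6.38% in met1-7 (1268 lower and 867 higher, against 672 and 1895), while the members called lower still numbered 4 and 2. Under it 84 genes were lower and 104 higher in elp2-5, against 31 and 128. Quantile normalization called PSBR higher in FT in Col-0 (log2 fold change 0.22) and met1-7 (0.18).

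The largest decreases in Col-0 were those of a pair of Rubisco genes. RBCS1A (AT1G67090) read 20218, 20219, 19022 and 18399 FPKM in GC and 16742, 14371, 15113 and 16815 FPKM in FT. Every FT library was below every GC library, and the log2 fold change was -0.31 ± 0.06 (adjusted p = 0.00322). RBCS1B read 8498, 8288, 7173 and 6516 FPKM in GC and 5818, 5438, 5409 and 6470 FPKM in FT, where the nearest libraries of the groups almost met, and changed by -0.39 ± 0.11 (adjusted p = 0.0288). RBCS2B and RBCS3B gave -0.23 ± 0.13 and -0.18 ± 0.09 and were not called. In met1-7 the 4 small subunit genes gave log2 values from -0.28 to -0.14, in elp2-5 from -0.18 to 0.11, and none of these was called.

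LHCA5 and PSBS were lower in FT in both Col-0 and met1-7. LHCA5 read 223, 229, 222 and 221 FPKM in met1-7 GC and 165, 171, 193 and 167 FPKM in met1-7 FT, without overlap, and changed by -0.37 ± 0.06 (adjusted p = 0.00116). In Col-0 it read 228, 200, 207 and 190 FPKM in GC and 172, 183, 170 and 192 FPKM in FT, where the groups overlapped, and changed by -0.20 ± 0.06 (adjusted p = 0.0384). In elp2-5 it read 176, 167, 168 and 156 FPKM in GC and 150, 135, 129 and 146 FPKM in FT, which did not overlap, and the log2 value of -0.25 ± 0.06 missed the threshold (adjusted p = 0.0543). It was called without elp2-5 FT replicate 1. The other 4 photosystem I antenna genes gave values above 0 in Col-0 and met1-7.

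PSBS read 1838, 2058, 1804 and 1875 FPKM in met1-7 GC and 1599, 1550, 1657 and 1519 FPKM in met1-7 FT. The groups were apart, and the change was -0.26 ± 0.05 (adjusted p = 0.00449). In Col-0 it was -0.17 ± 0.05 (adjusted p = 0.0418) with overlapping groups, and in elp2-5 -0.03 ± 0.05, not called. The Col-0 calls were fragile. With each library left out in turn, between 1 and 4 members were called, and RBCS1A alone was called each time, with an adjusted p of at most 0.0172. Without Col-0 FT replicate 3, GC replicate 1 or GC replicate 2 it was the only member called, without FT replicate 2 it was called with PSAE2, which was then higher in FT, and without GC replicate 3 it was called with RBCS1B. Fitted on the 8 Col-0 leaf libraries only, 0 members were called, and under quantile normalization RBCS1A, at the top rank in every leaf library, could show no difference. In met1-7, LHCA5 and PSBS were called whichever library was left out.

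**Figure D3:**
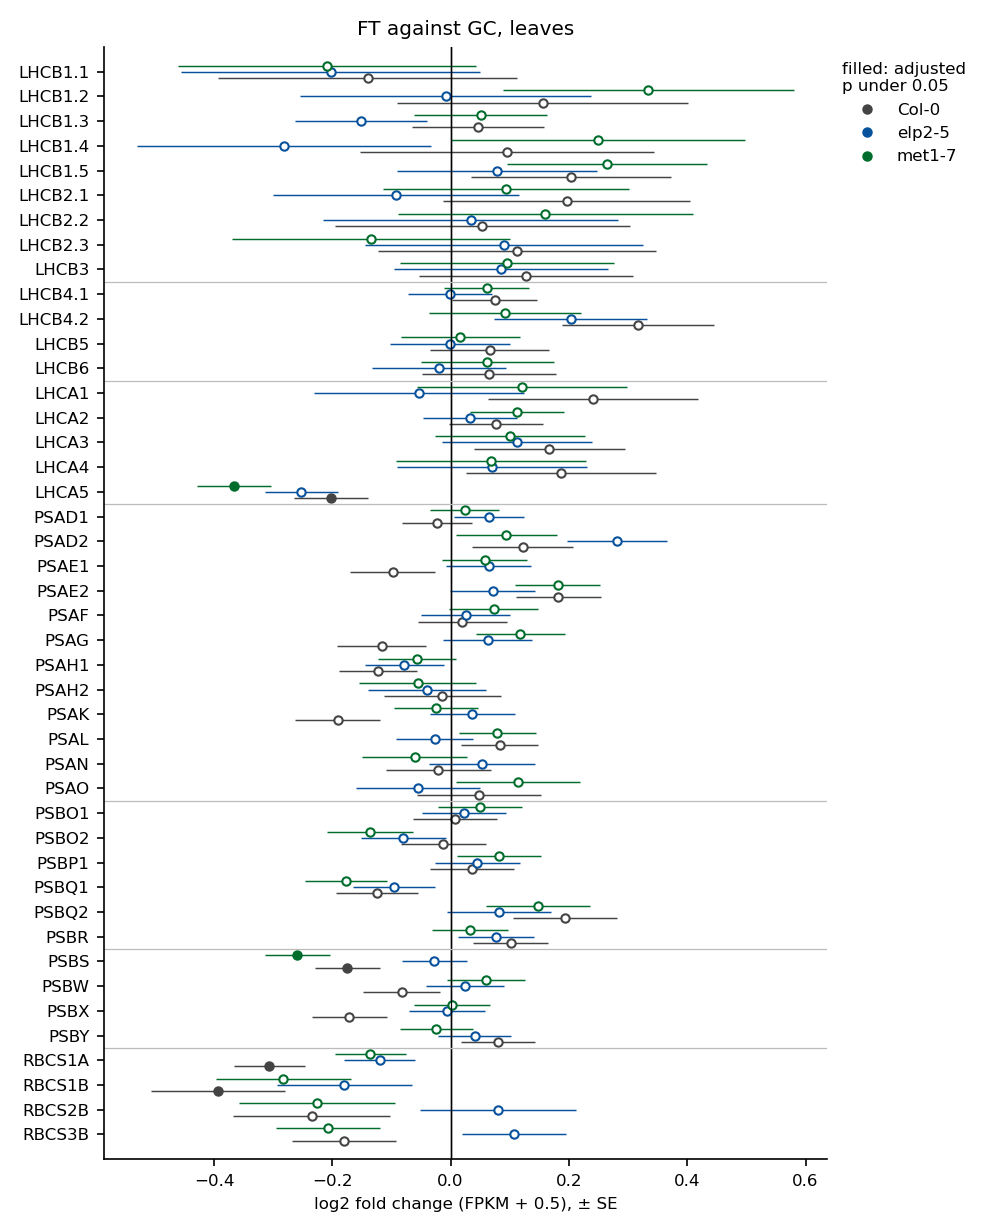
Log2 fold change ± SE of FT against GC for each of the 44 genes in leaves of Col-0 (dark grey), elp2-5 (blue) and met1-7 (green); filled points have an adjusted p under 0.05 and grey lines separate the 7 classes. The filled points are RBCS1A, RBCS1B, LHCA5 and PSBS in Col-0 and LHCA5 and PSBS in met1-7, all left of 0.

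Other genes of photosynthesis and regulators were called in the same comparisons. Over all genes, 3.38% were called lower and 9.53% higher in met1-7, and 3.15% and 8.71% in Col-0. Under median-ratio scaling 6.38% (met1-7) and 6.84% (Col-0) were called lower. In met1-7 FT leaves, 9 of 15 Calvin-Benson genes, 7 of 13 other photosystem and LHC-like genes and 4 of 11 electron transport genes were lower and 0 higher, whereas chlorophyll synthesis had 5 lower and 1 higher of 17 and the regulators 4 lower and 1 higher of 14. The rise in chlorophyll synthesis was that of PORB, a protochlorophyllide reductase (log2 fold change 0.42, adjusted p = 0.0329). Examples of genes that fell are GAPA2, a subunit of chloroplast glyceraldehyde-3-phosphate dehydrogenase (log2 fold change -0.41, adjusted p = 0.00197), and RCA (-0.39, adjusted p = 0.00513). In Col-0, 1 of 15, 6 of 13 (with 1 higher) and 2 of 11 were lower, with 5 of 17 lower in chlorophyll synthesis and 1 of 14 regulators higher, the growth regulator PIF4 (0.66, adjusted p = 0.0132). The light-stress gene ELIP2 fell by 1.27 in met1-7 (adjusted p = 0.00218) and by 1.08 in Col-0 (adjusted p = 0.00620) on the log2 scale. The medians in met1-7 were -0.25 for the Calvin-Benson list, -0.30 for the other photosystem genes and -0.14 for electron transport.

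A difference in the flight response between genotypes was not found for any member. The interaction contrasts in leaves called 0 of the 44 for elp2-5 against Col-0 and 0 for met1-7 against Col-0 with limma. Over all genes, 0.0151% and 0% were called. An unadjusted p under 0.05 was reached by 3 and 1 members, beside 1937 and 2095 of the 19877 genes tested. Each call in one genotype and not in another therefore does not show that the genotypes differed.

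In met1-7 leaves, few photosystem genes were called lower than in Col-0, and their number on the ground depended on the scaling. On the ground 7 of the 44 (15.9%) were lower and 0 higher, beside 8.17% of all genes called lower and 7.40% higher. In FT 2 (4.55%) were lower and 0 higher, beside 3.74% and 3.70%. Median-ratio scaling left 3 lower on the ground, beside 1789 of the 19877 genes tested, where FPKM as deposited gave 1623. That share of the members was no larger than that of all genes. Rescaling to the sum over non-members left 4, beside 1614 genes, and quantile normalization left 5, beside 1819. In FT each of these scalings left 2. PSAE2, a copy of the stromal subunit PsaE that helps bind ferredoxin, was called in both environments. It read 1952, 1995, 1965 and 2231 FPKM in Col-0 GC against 1742, 1591, 1684 and 1678 FPKM in met1-7 GC, and 2517, 2024, 2333 and 2380 FPKM in Col-0 FT against 1986, 1989, 1799 and 1819 FPKM in met1-7 FT. The mutant libraries were below the wild-type libraries in each environment. The log2 fold changes were -0.28 ± 0.07 (adjusted p = 0.0108) and -0.28 ± 0.07 (adjusted p = 0.0190).

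PSBQ2 was the other gene called in both, at -0.26 ± 0.09 (adjusted p = 0.0467) on the ground and -0.31 ± 0.09 (adjusted p = 0.0348) in FT. When single libraries were dropped, its call held in 1 of 8 cases on the ground (adjusted p up to 0.154) and in 3 of 8 in FT (up to 0.113), where that of PSAE2 held in 8 of 8 and in 5 of 8. The other calls on the ground were PSAK (-0.27 ± 0.07, adjusted p = 0.0138), PSAE1, PSBP1, PSAG and PSBW. No antenna gene and no Rubisco gene was called in either environment. With a library left out, between 2 and 6 members were called on the ground, with the fewest without Col-0 GC replicate 4 (PSAE2 and PSAK), 3 without met1-7 GC replicate 1 or 3, and 4 without Col-0 GC replicate 2 or met1-7 GC replicate 4. In FT between 0 and 3 were called, with 0 without Col-0 FT replicate 1, Col-0 FT replicate 4 or met1-7 FT replicate 3, and only PSAE2 without Col-0 FT replicate 3 or met1-7 FT replicate 2.

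Within groups, most of these genes varied together. Deviations of each gene from its group mean were compared with the mean deviation of the other 43 over the 24 leaf libraries, which share library scaling and tissue sampling, and Pearson's r was above 0.5 for 37 genes. The highest value was 0.97 for LHCB5. The 4 negative values belonged to RBCS1B (-0.58), RBCS2B (-0.44), LHCA5 (-0.14) and PSBS (-0.07). In roots 42 of 44 were above 0.5 and none was negative. The within-group SD on the log2 scale had a median of 0.12 for members in leaves, beside 0.13 for all genes, and of 0.35 in roots, beside 0.14.

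In roots all 44 genes were detected in every library, at low levels. They took between 0.19% and 0.44% of the summed FPKM. None was among the 100 genes of highest FPKM in any root library. In Col-0 GC, the ratio of the leaf mean to the root mean had a median of 68.4 over the 44 genes, from 23.0 for LHCA5 to 1881 for LHCB1.4. The largest ratio rests on a root mean near 0, at 0.61 ± 0.28 FPKM for LHCB1.4. The organs were deposited in separate tables, so these levels are set side by side without a test. The highest root levels in Col-0 GC were those of LHCB1.3 (203 ± 83.4 FPKM), RBCS1A (186 ± 65.1 FPKM), PSBR (156 ± 37.2 FPKM) and LHCB1.5 (152 ± 65.2 FPKM).

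Leaf and root libraries differed in the make-up of several multi-gene families. Within LHCB1, LHCB1.1 made up between 5.48% and 12.7% of the summed FPKM in leaf libraries and between 0.28% and 0.99% in root libraries. LHCB1.4 made up a median of 3.29% in leaves and 0.16% in roots. The ranges of both genes did not overlap between organs, whereas LHCB1.3 and LHCB1.5 together made up most of the family in either organ. In Col-0 GC, LHCB1.1 read 2225, 2832, 3152 and 2925 FPKM in leaves and 1.54, 2.13, 6.16 and 1.39 FPKM in roots.

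In the Rubisco family RBCS1A took between 37.4% and 50.4% in leaves and between 74.9% and 88.1% in roots, and RBCS2B took between 14.1% and 19.8% in leaves and between 0.81% and 4.80% in roots. RBCS1A lies on chromosome 1, and the other 3 genes are neighbours on chromosome 5. The leading copy of PSAE was not the same, with PSAE1 at between 56.6% and 65.4% of the family in leaves and PSAE2 at between 57.3% and 68.0% in roots. LHCB2.1 took a median of 40.8% of LHCB2 in leaves and 64.3% in roots. Stretches of 1 read length that occur unchanged in another annotated gene made up at most 12.1% of a member's transcript (LHCB2.2). Stretches that differ by single bases were not counted, and how well reads were split between similar copies was not tested.

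**Figure D4:**
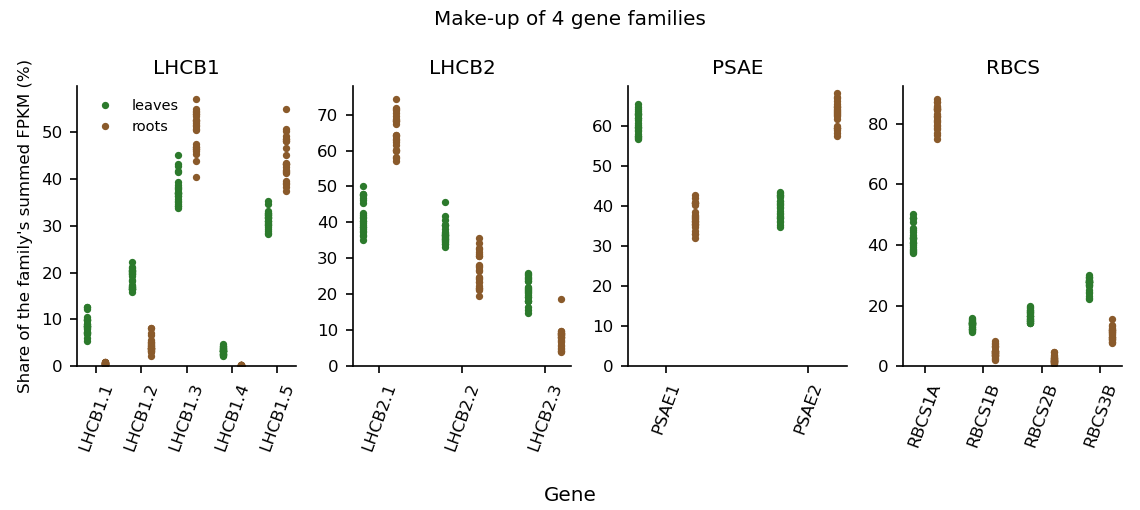
Share of each copy in its family's summed FPKM (percent) for LHCB1, LHCB2, PSAE and RBCS; every point is 1 of 24 leaf (green) or 24 root (brown) libraries. LHCB1.1 and LHCB1.4 are near 0 in roots, RBCS1A is at 74.9% or more there, and PSAE1 and PSAE2 change places.

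Promoters are shown for gene copies whose part in the family differed between organs although the copies lie close together or encode the same subunit. LHCB1.1 and LHCB1.3 are transcribed away from each other on chromosome 1 with 1915 bases between them, and LHCB1.4 and LHCB1.5 on chromosome 2 with 1038 bases. The 250 bases before the outermost annotated start (RefSeq, TAIR10.1) are chr1:10475970-10476219 (- strand) for LHCB1.1, chr1:10477635-10477884 (+ strand) for LHCB1.3, chr2:14524357-14524606 (+ strand) for LHCB1.4, chr2:14523569-14523818 (- strand) for LHCB1.5, chr4:14204062-14204311 (- strand) for PSAE1 and chr2:8736484-8736733 (+ strand) for PSAE2. Capitals mark matches, on either strand, to CACGTG (G-box), GATAAG (I-box), AANAATCT and CCAATC. AANAATCT, where N is any base, is a looser pattern than the site of the clock protein CCA1, and a match need not be that site.
LHCB1.1: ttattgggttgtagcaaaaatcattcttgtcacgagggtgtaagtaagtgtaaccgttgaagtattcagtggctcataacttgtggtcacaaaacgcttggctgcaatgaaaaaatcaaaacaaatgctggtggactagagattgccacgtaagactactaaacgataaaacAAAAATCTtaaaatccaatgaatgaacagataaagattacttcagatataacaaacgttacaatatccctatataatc
LHCB1.3: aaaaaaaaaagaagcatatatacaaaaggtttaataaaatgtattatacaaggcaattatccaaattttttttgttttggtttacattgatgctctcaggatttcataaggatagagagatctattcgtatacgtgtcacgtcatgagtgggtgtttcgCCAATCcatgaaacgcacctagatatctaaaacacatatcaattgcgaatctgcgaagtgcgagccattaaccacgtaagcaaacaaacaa
LHCB1.4: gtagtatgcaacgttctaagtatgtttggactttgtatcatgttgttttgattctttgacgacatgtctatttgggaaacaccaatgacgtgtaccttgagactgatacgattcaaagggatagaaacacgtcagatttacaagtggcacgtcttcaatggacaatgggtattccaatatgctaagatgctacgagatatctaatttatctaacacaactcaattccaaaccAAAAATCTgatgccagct
LHCB1.5: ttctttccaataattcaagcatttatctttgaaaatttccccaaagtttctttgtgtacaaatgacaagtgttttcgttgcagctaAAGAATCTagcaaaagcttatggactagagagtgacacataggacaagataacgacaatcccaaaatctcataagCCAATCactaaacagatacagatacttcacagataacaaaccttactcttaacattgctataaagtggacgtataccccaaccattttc
PSAE1: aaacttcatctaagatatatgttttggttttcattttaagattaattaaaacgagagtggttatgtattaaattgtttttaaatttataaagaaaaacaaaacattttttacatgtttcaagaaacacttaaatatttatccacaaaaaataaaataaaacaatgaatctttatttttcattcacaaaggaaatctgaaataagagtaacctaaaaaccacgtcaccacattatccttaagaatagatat
PSAE2: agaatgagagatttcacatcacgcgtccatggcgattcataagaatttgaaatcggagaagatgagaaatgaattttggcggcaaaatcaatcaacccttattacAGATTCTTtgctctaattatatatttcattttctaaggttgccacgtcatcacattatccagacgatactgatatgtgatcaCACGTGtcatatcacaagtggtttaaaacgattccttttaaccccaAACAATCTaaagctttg
The G-box occurred in the 250 bases of 9 of the 44 genes, 20.5%, and in 6.49% of 27437 promoters of the same length. The I-box was in 10 (22.7%, beside 12.3%), AANAATCT in 10 (22.7%, beside 13.4%) and CCAATC in 11 (25%, beside 10.2%). Of the copies shown, LHCB1.1 and LHCB1.4, of low share in roots, held AANAATCT, LHCB1.5 held it together with CCAATC, LHCB1.3 held CCAATC, PSAE1 held none of the 4 motifs, and PSAE2 held a G-box and AANAATCT matches. A match is a run of letters in this window and not a measured binding site.

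Flight and genotype differences in roots were mostly not resolved, since libraries of a group differed widely. Between FT and GC, limma called 0 members in the roots of each genotype (Col-0, then elp2-5, then met1-7), where 2.90%, 6.78% and 1.19% of all 21000 genes tested were called. An unadjusted p under 0.05 was reached by 2, 0 and 27 members, beside 4007, 5172 and 3801 of the 21000 genes. The median log2 values were 0.26, -0.01 and 0.56, beside 0.04, 0.01 and 0.04 over all genes. In met1-7 all 44 values were above 0. The 18 LHC antenna genes summed to 714, 755, 927 and 1062 FPKM in met1-7 GC roots and to 1193, 1322, 992 and 1635 FPKM in met1-7 FT roots. The lowest FT library lay between the GC libraries and the other 3 lay above them.

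PSBQ2 read 17.5, 14.1, 18.7 and 20.9 FPKM in met1-7 GC roots and 25.6, 29.8, 21.7 and 37.8 FPKM in met1-7 FT roots, without overlap. Its adjusted p of 0.0811 was the lowest of the members there, with a log2 value of 0.66 ± 0.19. Non-overlapping higher values were seen for 7 of the 44 genes, beside 8.24% of all genes. Without met1-7 FT root replicate 3, or with library weights, PSBQ2 was called higher. Since the 44 genes deviate together between replicates, their common sign is not that of 44 separate observations. The interaction contrasts in roots called 0 members and 0% of all genes for both mutants. An unadjusted p under 0.05 was reached by 0 members for elp2-5 and 1 for met1-7, beside 2179 and 1331 of the 21000 genes tested.

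The 8 leaf and shoot markers other than AS1 read near 0 in the root libraries. Their summed FPKM ran from 0.61 to 0.97 in met1-7 FT roots and from 0.55 to 0.85 in met1-7 GC roots, with overlap, and from 0.27 to 0.66 in the roots of Col-0 and elp2-5. Over the 24 root libraries, deviations of this sum from the group means had a Pearson's r of 0.22 with those of the summed members, as a description. The marker sums lie near 0, and the part of traces of leaf material in the root values was not tested.

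**Figure D5:**
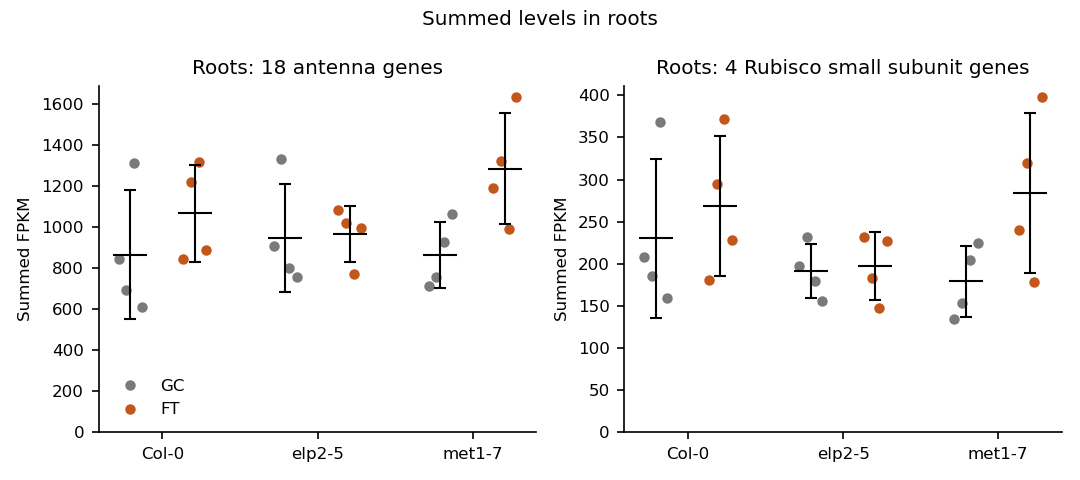
Summed FPKM of the 18 LHC antenna genes (left) and of the 4 Rubisco small subunit genes (right) in roots, by genotype; points are libraries, GC in grey and FT in orange, and marks and bars are the mean ± SD (n = 4). The met1-7 FT libraries reach 1635 FPKM and 398 FPKM, and FT and GC overlap in every genotype.

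Between genotypes, few root values passed the test. In GC roots 1 member was lower in elp2-5 than in Col-0, beside 19.8% of all genes called lower, and in FT roots 2, beside 21.2%. LHCB1.2 read 27.4, 24.9, 50.2 and 9.25 FPKM in Col-0 GC roots and 12.5, 17.0, 10.6 and 6.99 FPKM in elp2-5 GC roots. The groups overlapped through Col-0 GC replicate 4. The log2 fold change was -1.05 ± 0.36 (adjusted p = 0.0246), the single DEG among the members in any comparison, where 1.96% of all genes were lower DEGs. The call was lost without Col-0 GC replicate 1 (adjusted p = 0.0584) or 3 (0.108), and without elp2-5 GC replicate 3 (0.0502) or 4 (0.0889), and summed over the 5 LHCB1 genes the log2 value was 0.055. Without Col-0 GC replicate 3, LHCA4 and PSBY were called higher in elp2-5.

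LHCA5 read 7.33, 12.3, 11.5 and 9.23 FPKM in Col-0 FT roots and 6.56, 6.43, 4.34 and 6.30 FPKM in elp2-5 FT roots. The groups did not overlap, and the log2 fold change was -0.71 ± 0.20 (adjusted p = 0.00686). PSBR read 133, 233, 247 and 179 FPKM in Col-0 FT roots and 133, 127, 99.2 and 123 FPKM in elp2-5 FT roots, where the highest elp2-5 library just passed the lowest Col-0 library, and changed by -0.68 ± 0.22 (adjusted p = 0.0172). Without Col-0 FT replicate 2 or 3, or elp2-5 FT replicate 3, LHCA5 was the single call. Between met1-7 and Col-0 roots limma called 0 members in GC and 0 in FT, beside 7.6% and 5.43% of all genes. An unadjusted p under 0.05 was reached by 1 and 4 members, beside 4554 and 3972 of the 21000 genes tested. Without Col-0 GC replicate 4, LHCB1.2 was called lower in met1-7 GC roots, and without met1-7 FT replicate 1, LHCB1.4 was called higher in met1-7 FT roots.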

How the data were processed

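Poly(A) RNA of 48 libraries, 4 in each of 12 groups, was sequenced on a strand-specific kit. The authors deposited 1 table of FPKM per organ, with 33977 genes, and the submitters' processing notes name FastQC, Trimmomatic, STAR, RSEM, edgeR and TAIR10. FPKM are not counts, so limma 3.58.1 (R 4.3.3; trend and robust empirical Bayes, two-sided) on log2(FPKM + 0.5) stood in for the count model of the study. A pseudocount understates changes of low genes. Each organ was fitted on its 24 libraries as 6 group means, over genes with at least 1 FPKM in at least 4 libraries, with Benjamini-Hochberg adjustment over all genes tested. Called means an adjusted p under 0.05, and a DEG also needed a fold change of 2 or more, with the gene detected in 1 or more replicates on each side. The 14 comparisons and 4 interaction contrasts were set by the design, and sums over classes got no test, while family sums were fitted as an alternative only. P-values measure the spread between libraries, and depth is known only in relative terms.

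The 44 members and the 7 other gene lists were chosen with earlier results of these data known. All 44 could be named. In each comparison up to 3 called members of largest rise and up to 3 of largest fall got full statistics, and in each class the members of highest and lowest level in Col-0 GC leaves were described. Of the lists, up to 2 called genes of largest change were eligible. PSAG, PSBQ1 on the ground, RBCS1A, LHCA5, PSBS, LHCB2.1, LHCB1.1 and PSBQ2 in roots were given values beyond that rule, chosen after their values were seen. Replicate numbers were not used as pairs. The fit was also run on simulated data with independent noise for each gene. Such data lack the shared deviations of the members, so they do not check the counts of called members. Alternatives were 2 other pseudocounts, no filter, 3 other scalings, a replicate block, library weights, a fit on only the libraries compared, summed families and each library left out. Promoter windows were read from TAIR10.1 with RefSeq annotation (Biopython 1.88).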

Additional observations from a re-analysis of the deposited data

Results flagged for a closer look

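Summed FPKM of each of the 7 classes and the share of all 44 genes in a library were examined within each group of 4 libraries, and chance is expected to flag about 1 in 20 groups. Of 96 such sets of 4 values, 2 held a library far from the other 3. The 4 other photosystem II subunits summed to 174.8 FPKM in elp2-5 FT root replicate 3, where the other 3 libraries lay between 227.9 and 234.0 FPKM. The 6 genes of the oxygen-evolving side summed to 20270 FPKM in met1-7 FT leaf replicate 1, where the other 3 lay between 18670 and 18840 FPKM.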

How the results depend on the processing

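Under alternatives to the fit, 162 counts of called members (shares, where families were summed) stayed within 1.5 times those reported and 18 did not. The latter were as follows, and their cause was not tested unless given. Quantile normalization left 19 calls for elp2-5 against Col-0 in GC leaves and 19 in FT leaves, and gave 1 (LHCA5) for flight in elp2-5 leaves, as did rescaling to the sum over non-members (1) and library weights (1). Fits on only the libraries compared, which hold fewer samples, gave 0 calls for flight in Col-0 leaves, 0 for met1-7 in FT leaves and 0 for elp2-5 in GC roots. For met1-7 in GC leaves, median-ratio scaling gave 3 and rescaling 4. Library weights gave 1 for flight in met1-7 roots (PSBQ2), 4 for elp2-5 in FT roots (LHCA5, PSBO2, PSBQ1 and PSBR) and 1 for met1-7 in GC roots (LHCB1.2). With families summed, 29 entries replaced the 44 genes and the share called was compared. The calls were 0 for met1-7 in FT leaves and 0 for elp2-5 in GC roots, and flight in met1-7 leaves and elp2-5 in FT roots kept a count of 2 each, a larger share of fewer entries. The LHCB1 sum stood at 0.055 where LHCB1.2 alone had -1.05.

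With each library left out in turn, calls ran from 1 to 4 for flight in Col-0 leaves, 0 to 1 in elp2-5 leaves, 2 to 3 in met1-7 leaves and 0 to 1 in met1-7 roots. For elp2-5 against Col-0 they ran from 25 to 33 (GC leaves), 31 to 40 (FT leaves), 0 to 2 (GC roots) and 1 to 3 (FT roots), and for met1-7 from 2 to 6, 0 to 3, 0 to 1 and 0 to 1. With a replicate block, flight in Col-0 leaves had 2 calls (RBCS1A and RBCS1B), and no other count moved by over 1.5 times. Same-numbered libraries of the same organ had correlations of deviations from -0.16 to 0.14, which gave no reason to pair them. Same-numbered leaf and root libraries were not compared.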
